A study of Mus musculus with 4 samples.

Results

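Enteroendocrine cells, the hormone-secreting cells of the gut, arise in the crypt from secretory progenitors that switch on a series of transcription factors. The 9 factors described here were Neurog3, Neurod1, Pax4, Pax6, Nkx2-2, Isl1, Insm1, Fev and Rfx6, found by symbol among the 18436 genes of the deposited expression table, and each symbol had 1 row. Neurog3 is switched on briefly in progenitors and commits them to the endocrine lineage, and its known targets include Neurod1, Pax4, Nkx2-2 and Insm1. The later factors then steer the cells to particular hormones, and the genes for hormones and secretory granules follow.

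RNA was sequenced from sorted Lgr5-GFPhigh cells, the brightest cells of mice with an Lgr5-EGFP-IRES-creERT2 allele, in which green fluorescent protein and a tamoxifen-dependent Cre recombinase are made where the stem cell gene Lgr5 is active. Lgr5-CREPTWT mice (n = 2) had this allele alone, and Lgr5-CREPTKO mice (n = 2) also had CREPT fl/fl alleles, loxP-flanked copies of the gene for CREPT, Rprd1b. Mice of both genotypes were of the C57BL/6 strain, received tamoxifen into the abdomen (1 mg daily over 5 days), and had their cells sorted on day 7. The study used mice of both sexes at 6 to 8 weeks and does not give the sex of each of these 4. The Lgr5 allele is known to be silent in a share of crypts, and the sort collected only cells with GFP. The comparison asked what the loss of CREPT changed in Lgr5+ stem cells.

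Values were FPKM (fragments scaled to transcript length and to the mapped total), so that levels of different genes can be compared. From small RNA genes, whose values moved in steps of 1 read, each library was estimated to hold 17900000 to 18800000 reads. Rprd1b was 17.69 and 18.09 FPKM in the Lgr5-CREPTWT mice and 6.65 and 7.36 FPKM in the Lgr5-CREPTKO mice, with no overlap. Lgr5 itself was at 37.7 FPKM or above in every mouse and Olfm4, another marker of crypt base stem cells, at 4932 FPKM or above. Of 12 stromal and endothelial markers, 11 (Pecam1 included) did not exceed 0.28 FPKM. The other, Kit, a receptor that some epithelial cells of the gut also make, was 6.92 and 9.77 FPKM in the Lgr5-CREPTWT mice and 5.27 and 2.82 FPKM in the Lgr5-CREPTKO mice, the order of mice seen in most of the factors. The 9 neuron and glia markers in the table stayed below 1 FPKM in every mouse. Tubb3, 1 of these 9, was 0.81 and 0.89 FPKM, then 0.41 and 0.13 FPKM. The part of such cells in the levels of Isl1 and Fev, factors that neurons also use, was not tested.

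Sequence before the start sites is shown for 4 of the factors, each with an E-box, CANNTG. Members of the basic helix-loop-helix family bind the E-box, and Neurog3 and Neurod1, the first of the factors, belong to this family. Of the 9 factors, 7 had a RefSeq start in the promoter table used (8 windows, as Pax6 had 2); Pax4 and Insm1 are named only. Each window is the 250 bases before the start, read 5′ to 3′ on the strand of the gene, on GRCm38.p6. The Neurog3 window is chr10:62132840-62133089 (plus strand), that of Neurod1 is chr2:79456637-79456886 (minus strand), that of Nkx2-2 is chr2:147186403-147186652 (minus strand) and that of Isl1 is chr13:116309689-116309938 (minus strand). RefSeq places Nkx2-2 from 147176485 to 147195434, so its window lies inside the gene, before a start other than the outermost. Capitals mark every CANNTG.
Neurog3: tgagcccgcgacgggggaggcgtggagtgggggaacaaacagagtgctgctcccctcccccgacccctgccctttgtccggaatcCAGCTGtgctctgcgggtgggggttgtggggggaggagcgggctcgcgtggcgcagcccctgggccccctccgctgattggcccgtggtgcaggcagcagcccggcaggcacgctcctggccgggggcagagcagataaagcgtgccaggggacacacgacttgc
Neurod1: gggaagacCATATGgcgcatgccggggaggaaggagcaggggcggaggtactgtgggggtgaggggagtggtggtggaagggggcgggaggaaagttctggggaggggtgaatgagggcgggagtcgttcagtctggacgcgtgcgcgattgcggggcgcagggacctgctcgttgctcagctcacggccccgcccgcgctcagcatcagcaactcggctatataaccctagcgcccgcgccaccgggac
Nkx2-2: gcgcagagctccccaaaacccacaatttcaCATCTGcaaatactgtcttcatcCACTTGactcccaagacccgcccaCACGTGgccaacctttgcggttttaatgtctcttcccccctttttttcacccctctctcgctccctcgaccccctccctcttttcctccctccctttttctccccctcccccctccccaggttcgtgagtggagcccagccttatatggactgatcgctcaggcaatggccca
Isl1: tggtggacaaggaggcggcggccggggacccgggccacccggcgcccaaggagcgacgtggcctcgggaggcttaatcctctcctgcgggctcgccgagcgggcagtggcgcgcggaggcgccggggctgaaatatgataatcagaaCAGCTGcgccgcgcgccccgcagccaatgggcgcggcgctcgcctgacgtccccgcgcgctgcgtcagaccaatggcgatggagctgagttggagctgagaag

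Neurog3 and Isl1 had the E-box CAGCTG, starting 165 and 103 bases before the start. Nkx2-2 had 3 E-boxes, and the one farthest from the start, CATCTG, reads CAGATG on the other strand. Neurod1 had CATATG, 242 bases before its start. An E-box was present in 5 of the 8 windows of the factors and in 66.2% of all 32851 promoter windows of this length. The windows without one, those of Fev and Rfx6 and 1 of the 2 of Pax6, are not shown. The other Pax6 window, with the E-box CAAATG 20 bases before its start, is not shown either. CAGCTG was present in 2 of the 8 windows and in 13.0% of all, and CAGATG on either strand in 1 of the 8 and in 14.4% of all. The homeodomain core TAATTA was present in 1 window, that of Fev, and in 4.84% of all. TATAAA on either strand was present in 0 of the 8 and in 12.4% of all. CAGCTG and CAGATG are forms of CANNTG and are counted under it as well. These letters are matches only, and binding was not measured here.

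All 9 factors were lower in Lgr5-CREPTKO cells, where their mean level was between 18.7% and 41.6% of that in Lgr5-CREPTWT cells. In each of the 9, both Lgr5-CREPTKO values lay below both Lgr5-CREPTWT values, against 31.0% of the 12621 genes tested, and 0 of the 9 had both above, against 25.6%. Neurod1 and Pax4 fell past the thresholds used, a Benjamini-Hochberg adjusted p under 0.05 in limma's moderated test and a change of more than 1 on the log2 scale, and the other 7 did not. These 2 of 9 stand against 1.01% of all genes tested that were called lower. At an unadjusted p below 0.05, 9 of 9 were lower, against 15.2% of all genes, and 0 were higher, against 9.27%. Log2 fold changes, on the log2(FPKM + 0.5) scale, ranged from -1.67 to -1.07 with a median of -1.28, while the median of all genes tested was -0.01. A log2 fold change below -1 was found in 9 of 9 factors and in 2.62% of all genes. Pax6 is in these counts, but it reached the mean of 0.5 FPKM needed for testing only through its Lgr5-CREPTWT values. Fewer endocrine progenitors among the sorted cells and less RNA per progenitor cannot be told apart in such bulk samples.

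**Figure D1:**
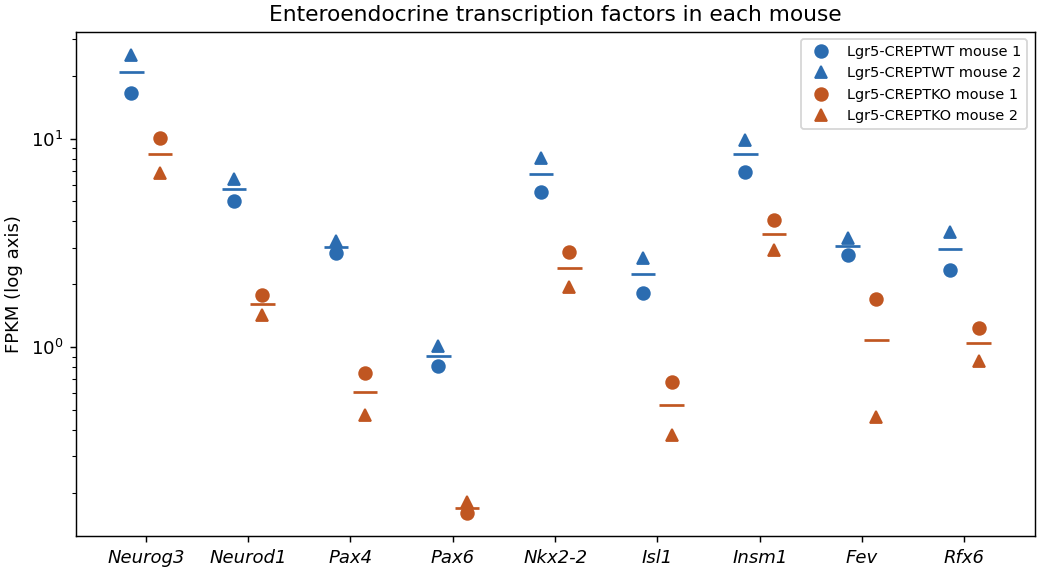
FPKM of the 9 factors (log axis) in each mouse, with Lgr5-CREPTWT in blue, Lgr5-CREPTKO in orange, mouse 1 as circles and mouse 2 as triangles. Short lines are means of 2 mice. In every factor the orange points lie below the blue ones.

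Neurog3, the earliest of the series, lies on chromosome 10 from 62133090 to 62134763 on the plus strand and was the most abundant factor in every mouse. It was 16.59 and 25.1 FPKM in the Lgr5-CREPTWT mice and 10.05 and 6.83 FPKM in the Lgr5-CREPTKO mice. Both Lgr5-CREPTKO mice were below both Lgr5-CREPTWT mice, although mice of 1 genotype differed by up to 1.51-fold. The change was -1.25 on the log2 scale (SE 0.261, 95% interval -1.92 to -0.58), and the limma adjusted p of 0.0731 missed the threshold.

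Neurod1, a helix-loop-helix factor that follows Neurog3 and persists in differentiating endocrine cells, lies on chromosome 2 from 79452637 to 79456636 on the minus strand. It was 5 and 6.39 FPKM in the Lgr5-CREPTWT mice (5.70 ± 0.983, SD, n = 2) and 1.78 and 1.42 FPKM in the Lgr5-CREPTKO mice (1.60 ± 0.255, SD, n = 2). The groups stood well apart, and mice of 1 genotype differed by at most 1.28-fold. The change was -1.56 on the log2 scale (SE 0.182, 95% interval -2.02 to -1.09, limma adjusted p = 0.0336).

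Insm1, a zinc finger factor of early endocrine differentiation, kept the highest proportion of its Lgr5-CREPTWT level, 41.6%. It was 6.91 and 9.88 FPKM in the Lgr5-CREPTWT mice and 4.07 and 2.92 FPKM in the Lgr5-CREPTKO mice. The lowest Lgr5-CREPTWT value was still above the highest Lgr5-CREPTKO value. The change was -1.15 on the log2 scale (SE 0.228, limma adjusted p = 0.0688).

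The paired box genes Pax4 and Pax6 had the lowest levels left in Lgr5-CREPTKO cells in proportion to Lgr5-CREPTWT cells, 20.3% and 18.7%. Pax4, which acts early in several endocrine subtypes and is located at chromosome 6, positions 28442334 to 28449340, had values of 2.81 and 3.21 FPKM in Lgr5-CREPTWT cells and 0.75 and 0.47 FPKM in the Lgr5-CREPTKO mice. The Lgr5-CREPTWT mice agreed closely, within 1.14-fold. Its log2 fold change of -1.67 (SE 0.213, 95% interval -2.22 to -1.12, limma adjusted p = 0.0376) was the lowest among the 9. Pax6, known from eye and pancreas and a regulator of hormone genes, was 0.81 and 1.01 FPKM in the Lgr5-CREPTWT mice and 0.16 and 0.18 FPKM in the Lgr5-CREPTKO mice. It was the least abundant factor in all 4 mice, and its Lgr5-CREPTKO values correspond to roughly 13 and 14 reads on its longest transcript. The change was -1.07 on the log2 scale (SE 0.258, limma adjusted p = 0.0935), and it became -1.90 (adjusted p = 0.1003) when 0.1 was added to FPKM in place of 0.5. The Pax6 locus overlaps the protein-coding gene Elp4 (3.18 and 2.99 FPKM, then 1.95 and 2.25 FPKM) and the antisense RNA gene Pax6os1, and whether the counting used strand is not given, so its reads may not all be its own.

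Nkx2-2, a homeodomain factor needed for several endocrine subtypes, was 5.51 and 8.02 FPKM in the Lgr5-CREPTWT mice and 2.86 and 1.94 FPKM in the Lgr5-CREPTKO mice. The groups did not overlap. The change was -1.32 on the log2 scale (SE 0.245, limma adjusted p = 0.0627). The gene overlaps 2 long noncoding RNA genes. Of these, 6430503K07Rik was 1.11 and 1.39 FPKM, then 0.9 and 0.31 FPKM, and Nkx2-2os has no value in the deposited data. As with Pax6, whether the counting used strand is not given, so the Nkx2-2 reads may not all be its own.

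Isl1, a LIM homeodomain factor of hormone-producing cells, was 1.81 and 2.67 FPKM in the Lgr5-CREPTWT mice and 0.68 and 0.38 FPKM in the Lgr5-CREPTKO mice. Its Lgr5-CREPTKO values rest on roughly 31 and 17 reads. The change was -1.41 on the log2 scale (SE 0.272, limma adjusted p = 0.0656).

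Fev, an ETS-family factor of serotonin-producing cells, was 2.75 and 3.33 FPKM in the Lgr5-CREPTWT mice and 1.7 and 0.46 FPKM in the Lgr5-CREPTKO mice. The Lgr5-CREPTKO mice differed from each other by 3.70-fold, more than in any other of the 9. The log2 fold change of -1.28 had the widest interval, from -2.35 to -0.21 (limma adjusted p = 0.152). Without Lgr5-CREPTKO mouse 2 it was -0.68 (adjusted p = 0.236).

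Rfx6, a winged helix factor required for endocrine cells of gut and pancreas, was 2.35 and 3.58 FPKM in the Lgr5-CREPTWT mice and 1.23 and 0.86 FPKM in the Lgr5-CREPTKO mice. Again the groups did not overlap. The change was -1.15 on the log2 scale (SE 0.253, limma adjusted p = 0.0800).

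**Figure D2:**
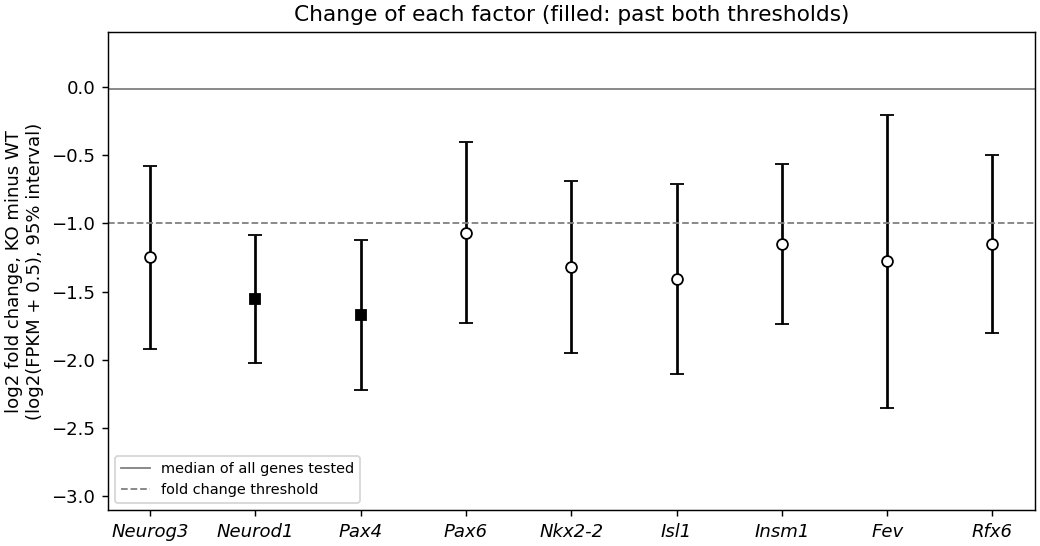
Log2 fold change of each factor, Lgr5-CREPTKO minus Lgr5-CREPTWT on the log2(FPKM + 0.5) scale, with 95% intervals from limma (n = 2 mice per genotype). Filled squares, Neurod1 and Pax4, passed both thresholds; every interval ended below 0.

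The calls were near the threshold. With an adjusted p below 0.1 and the same fold change limit, 8 of 9 factors were lower (all but Fev), against 1.71% of all genes. Pax6, tested only through its Lgr5-CREPTWT values, is among the 8. The calls did not hold in every alternative, and the cause of the lost calls was not tested. Leaving out any 1 of the 4 mice leaves 1 genotype with 1 mouse. The median log2 fold change of the factors then tested ran from -1.56 to -1.09.

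In Lgr5-CREPTWT cells the order of levels was Neurog3, Insm1, Nkx2-2, Neurod1, then Fev, Pax4 and Rfx6, then Isl1, then Pax6. Neurog3 stood above all others in each mouse, and Pax6 below all others. Insm1 and Nkx2-2 overlapped between mice, as did Nkx2-2 and Neurod1. Fev, Pax4 and Rfx6 overlapped one another. Isl1 overlapped Rfx6 and lay below Fev and Pax4. In Lgr5-CREPTKO cells Neurog3, Insm1, Nkx2-2 and Neurod1 kept this order with no overlap between neighbours, except that Fev, at 0.46 and 1.7 FPKM, spanned values from below Pax4 to within those of Neurod1.

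The make-up of the factor transcripts was compared within each mouse, as shares of the summed FPKM of the 9. That sum was 44.5 and 63.2 FPKM in the Lgr5-CREPTWT mice and 23.3 and 15.5 FPKM in the Lgr5-CREPTKO mice. Nkx2-2 held nearly the same share in every mouse, 12.4% and 12.7% in Lgr5-CREPTWT and 12.3% and 12.5% in Lgr5-CREPTKO. Rfx6 did as well, between 5.28% and 5.67%. Neurog3 took 37.2% and 39.7% in the Lgr5-CREPTWT mice and 43.2% and 44.2% in the Lgr5-CREPTKO mice. Insm1 took 15.5% and 15.6%, then 17.5% and 18.9%. The shares of Neurog3 and Insm1 were thus higher in Lgr5-CREPTKO cells with no overlap. Pax4 went from 6.31% and 5.08% to 3.22% and 3.04%. Isl1 went from 4.06% and 4.23% to 2.92% and 2.46%. Neurod1 (11.2% and 10.1%, then 7.65% and 9.18%) and Pax6 (1.82% and 1.60%, then 0.687% and 1.16%) were also lower with no overlap, whereas Fev overlapped. Shares add up to a whole, so they are not independent of one another. With random labels, 2 mice separate fully from 2 at a rate of 0.333, so the separations of shares are a description. The Pax6 shares in the Lgr5-CREPTKO mice rest on roughly 13 and 14 reads.

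**Figure D3:**
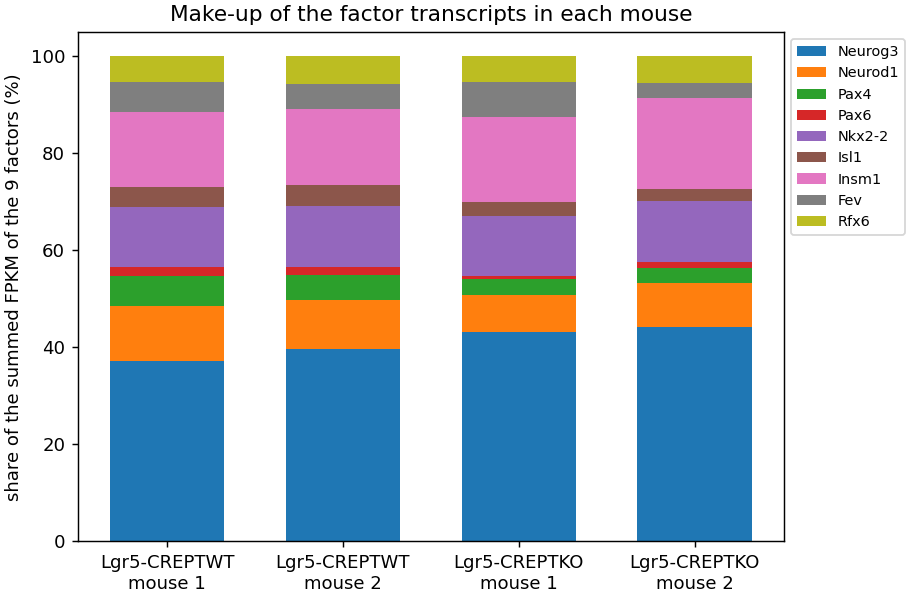
Share of the summed FPKM of the 9 factors held by each, in percent, for each mouse. Neurog3 and Insm1 take more and Pax4, Isl1, Neurod1 and Pax6 take less in the Lgr5-CREPTKO mice, while Nkx2-2 and Rfx6 hold the same shares to within 0.5 percentage points. Shares are a description of n = 2 mice per genotype.

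The later factors were set against Neurog3 by the difference of their log2 values within a mouse. For Neurod1 the difference was 0.31 lower in Lgr5-CREPTKO cells (-1.76 ± 0.182 against -2.07 ± 0.196, SD, n = 2), for Pax4 0.42 lower and for Isl1 0.16 lower, with no overlap between genotypes. The other 5 factors overlapped, with changes between -0.07 and 0.18. The exact two-sided permutation p was 0.333 for Neurod1, Pax4 and Isl1. As this is the smallest that 2 mice against 2 allow, the test could not pass a threshold of 0.05. With random labels, 2 mice separate fully from 2 at that same rate of 0.333, and 3 of the 8 later factors did so here. The values are a description. The value for Isl1 turned to 0.13 higher when 1 was added to FPKM.

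The factors also differed between mice of 1 genotype, and mostly in step. All 9 were higher in Lgr5-CREPTWT mouse 2 than in mouse 1, by 1.14-fold to 1.52-fold, against 49.6% of all genes tested. In the Lgr5-CREPTKO mice, 8 of 9 were higher in mouse 1 (all but Pax6), against 46.0% of all genes. The full order, Lgr5-CREPTWT mouse 2, Lgr5-CREPTWT mouse 1, Lgr5-CREPTKO mouse 1, Lgr5-CREPTKO mouse 2, was seen in 8 of 9 factors and in 8.32% of all genes. This order was looked for after the values were seen.

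Hormone and granule genes, which follow the factors in the lineage, had lower values too. Of 14 genes for hormones and monoamine synthesis, 10 were tested and 3 were called lower, against 1.01% of all genes: Ghrl (ghrelin), Cck (cholecystokinin) and Tac1 (the precursor of substance P), at -3.50, -1.65 and -1.86 on the log2 scale (limma adjusted p = 0.0187, 0.0319 and 0.0474). Gip, the gene of the incretin GIP, was 38.98 and 110.62 FPKM in the Lgr5-CREPTWT mice and 19.11 and 7.07 FPKM in the Lgr5-CREPTKO mice (log2 fold change -2.44, adjusted p = 0.109), and Ddc, which makes monoamines, had a log2 fold change of -0.44. The 10 had a median log2 fold change of -1.61. Lgr5-CREPTKO mouse 1 was above mouse 2 in 1 of these 10 genes, against 46.0% of all genes. Of 12 genes for granules and prohormone processing, 6 were tested and 2 were called lower (again against 1.01%), Chgb (chromogranin B) and Cpe (carboxypeptidase E), at -1.18 and -1.84. Chga, the gene of chromogranin A, and Pcsk1, a prohormone convertase, had log2 fold changes of -1.27 and -0.46 and did not pass. In both lists 0 genes were called higher, against 0.127% of all genes.

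Genes of Notch signalling and secretory fate, several of which act before Neurog3, had log2 fold changes on both sides of 0. Of the 10 on this list, 0 were called in either direction, against 1.01% of all genes called lower and 0.127% called higher. Their log2 fold changes ran from -0.90 to 0.58 with a median of -0.35. At an unadjusted p below 0.05, 3 were lower and 2 higher, against 15.2% and 9.27% of all genes. Both Lgr5-CREPTKO values lay below both Lgr5-CREPTWT values in 6 and above them in 4, against 31.0% and 25.6% of all genes. The lowest value was that of Spdef, a goblet and Paneth cell factor that is also on the goblet cell list and was named after its value was seen (8.01 and 16.03 FPKM, then 6.73 and 5.12 FPKM). Hes1, the Notch target that represses Neurog3, was 72.65 and 74.55 FPKM in the Lgr5-CREPTWT mice and 79.03 and 82.69 FPKM in the Lgr5-CREPTKO mice (log2 fold change 0.13, limma adjusted p = 0.296). Hes6, a Hes relative that works against Hes1, was 66.32 and 63.17 FPKM, then 52.5 and 52.47 FPKM (log2 fold change -0.30, adjusted p = 0.0846). Atoh1, which commits cells to the secretory lineages, was 5.18 and 9.52 FPKM, then 4.93 and 2.99 FPKM (log2 fold change -0.79, adjusted p = 0.241). The Lgr5-CREPTWT mice differed by 1.84-fold, and mouse 1 of each genotype had nearly the same Atoh1 level.

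A list of 14 other factors linked to enteroendocrine cells had 11 genes tested and 0 called, against 1.01% of all genes called lower and 0.127% called higher. At an unadjusted p below 0.05, 5 of the 11 were lower and 0 higher, against 15.2% and 9.27% of all genes. All 11 log2 fold changes were negative, with a median of -0.25. The most abundant, Mlxipl, a carbohydrate-sensing factor, and Tox3, an HMG-box gene, are active well beyond this lineage and had log2 fold changes of -0.25 and -0.21. Myt1, more restricted to endocrine cells, was 1.24 and 1.37 FPKM in the Lgr5-CREPTWT mice and 0.34 FPKM in each Lgr5-CREPTKO mouse (log2 fold change -1.10, limma adjusted p = 0.0701).

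**Figure D4:**
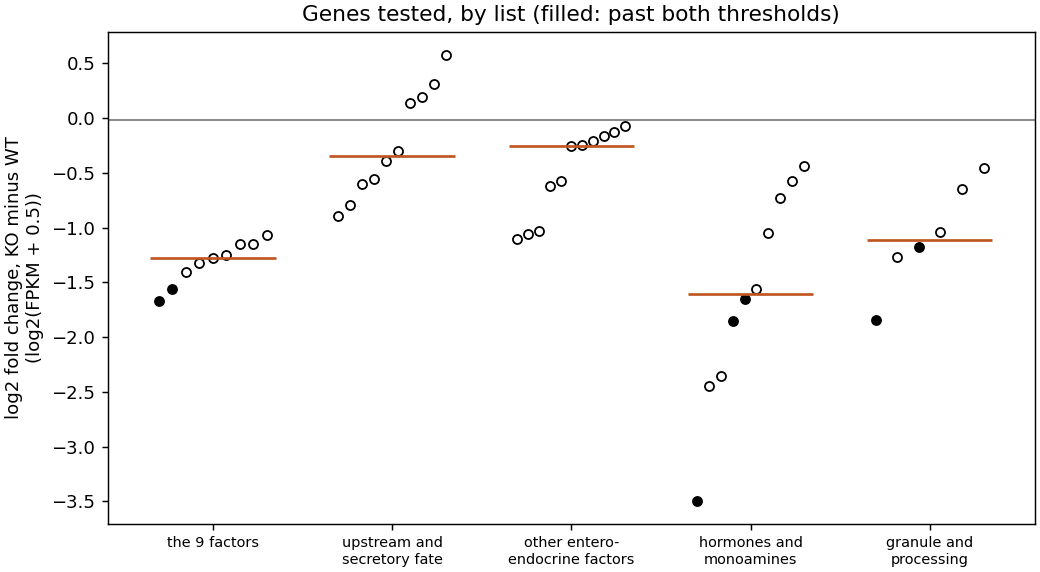
Log2 fold change, Lgr5-CREPTKO minus Lgr5-CREPTWT on the log2(FPKM + 0.5) scale, of each gene tested in the 9 factors and 4 related lists; filled points passed both thresholds and orange lines are medians. The 9 factors lie between -1.67 and -1.07, the hormones reach -3.50, and the Notch and secretory fate genes lie on both sides of 0.

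Markers of other cell types were read in the same mice. Of 15 goblet cell genes, 3 were called lower (Spink4, Ern2 and Ccl9, named after their values were seen), and 14 had both Lgr5-CREPTKO values below both Lgr5-CREPTWT values, against 1.01% and 31.0% of all genes tested. Their summed level was 1618 and 2650 FPKM in the Lgr5-CREPTWT mice and 895 and 1022 FPKM in the Lgr5-CREPTKO mice, led by Tff3 and Fcgbp. Of 13 tuft cell genes, 9 were tested and 0 called, 8 had both Lgr5-CREPTKO values below (31.0% of all genes), and 7 of the 9 had the order of mice seen in the factors (8.32% of all genes). The tuft list is dominated by Cd24a, which other lineages express, while Avil, a tuft cell gene, was 5.32 and 10.94 FPKM, then 4.26 and 1.59 FPKM. The summed Paneth cell level, led by Defa24 and Defa17, was 1908 and 1689 FPKM, then 1179 and 3215 FPKM, and was highest in the Lgr5-CREPTKO mouse in which 8 of the factors were lowest, but 12 of the 14 Paneth cell genes overlapped between genotypes and 0 were called. The 12 enterocyte genes, of which Vil1 and Fabp2 were most abundant, overlapped in 10 cases, and 0 were called. Immune markers other than Cd74, which epithelium also makes, such as Cd3g, reached at most 3.67 FPKM, also in Lgr5-CREPTKO mouse 2. Of the 11 stem cell genes, led by Olfm4 and Slc12a2, 0 were called and 9 had both Lgr5-CREPTKO values above, against 25.6% of all genes. The part of these other cells in the values of the 9 factors was not tested.

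Outside the 9, the genes whose pattern over the 4 mice was nearest to the median pattern of the factors were Creb3l4, Vwa5b2, Ccl9, Ly96 and D730005E14Rik, at Euclidean distances of 0.162 to 0.200 on the centred log2 scale. Creb3l4 and Ccl9 are also on the goblet cell list. Creb3l4 was 7.09 and 9.11 FPKM in the Lgr5-CREPTWT mice and 3.8 and 2.26 FPKM in the Lgr5-CREPTKO mice, and Ly96, which encodes a partner of the endotoxin receptor, was 6.44 and 7.84 FPKM, then 2.91 and 2.25 FPKM. The factors themselves lay at 0.0235 (Nkx2-2) to 0.550 (Fev), and 98 of 11648 other genes (0.841%) were nearer than Fev. With 4 mice, such likeness is a description of these libraries.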

How the data were processed

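Sorted Lgr5-GFPhigh cells of 2 Lgr5-CREPTWT and 2 Lgr5-CREPTKO mice were sequenced. The deposited table holds FPKM, rounded by the authors to 2 decimals. The study's methods name Bowtie2 for mapping to reference transcripts (GRCm38.p6) and RSEM for expression levels. The submitters' notes also name HISAT and mm10, and versions are not given in the sources used here. The study called genes with a count model, which FPKM do not allow.

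Columns were matched to mice by sample title. Here log2(FPKM + 0.5) was fitted for the 12621 genes whose mean reached 0.5 FPKM, with limma 3.58.1 (R 4.3.3, intensity trend) and Benjamini-Hochberg adjustment, with the study's thresholds (adjusted p below 0.05, absolute log2 fold change above 1). The method was run on simulated counts with an assumed spread that was not set from these mice. That run does not show how reliable the calls are here. All 9 factors passed the filter, Pax6 only through its Lgr5-CREPTWT values (0.81 and 1.01 FPKM, against 0.16 and 0.18 FPKM in the Lgr5-CREPTKO mice). Reads per library were estimated from 334 small RNA genes (RefSeq lengths); between 87.9% and 89.2% of the values used came out within 3% of a whole number of reads. Read numbers of factors use the longest GENCODE M21 transcript and are approximate, and cover counting error only. Coordinates and promoters are RefSeq, GRCm38.p6.

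The members and lists were chosen with earlier results of these data known. Named genes are the 9, Rprd1b, the called genes and the 2 most abundant others of each related list, the 2 most abundant of each marker list, and the 5 nearest in pattern; Lgr5, Atoh1, Spdef, Avil, the called goblet cell genes, Myt1, Elp4 and the other overlapping genes were added after their values were seen. Some genes that the rule names are not reported here. Same-numbered mice are different animals, and their deviations from the genotype means were not correlated across genes (-0.03). Nothing states that mice were prepared on separate days or came from separate litters. Python 3.11.15 was used for the rest.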

Additional observations from a re-analysis of the deposited data

How the results depend on the processing

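All 9 factors stayed lower in every alternative in which they were tested. Pax6 did not reach a mean of 1 FPKM and was not tested under that filter, and it fell under the filter when either Lgr5-CREPTWT mouse was left out. The 2 factors called became 0 without the filter on low values, 0 without the intensity trend, 0 with the replicate block, and 0 without any 1 mouse; with an adjusted p below 0.1 they became 8. Adjusted p of Neurod1 (log2 fold change -1.56) and Pax4 (-1.67) was then 0.128 and 0.127 without the filter, 0.0657 for each without the trend, and 0.0508 and 0.0539 with the replicate block. With 1 mouse left out, the log2 fold change ran from -1.72 to -1.39 for Neurod1 and from -1.85 to -1.49 for Pax4. Over all genes, 128 lower and 16 higher became 0 and 0 without the filter (smallest adjusted p 0.105, with 2250 lower at an unadjusted p below 0.05), 4 and 0 without the trend, 101 and 8 with the replicate block, 337 and 52 without the fold change limit, 216 and 35 at an adjusted p below 0.1, and 0 and 0 with any mouse left out (1170 to 1615 lower at an unadjusted p below 0.05). The cause of the lost calls was not tested. The 3 hormone genes called became 0 without the filter, without the trend and without any mouse, and the 2 granule genes became 0, 0 and 0, and 1 with the replicate block. The hormone genes called were 4 with the block, and 2 with 0.1 added to FPKM and with a common total in every mouse. The mice share only a number, so this is no pairing by design.

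The comparison with Neurog3 changed with the pseudocount. With 0.1 added, the change of the difference was -0.87 for Pax4, -0.61 for Pax6, -0.17 for Nkx2-2, -0.62 for Isl1 and -0.12 for Rfx6. With 1 added it was -0.12 for Pax4, 0.50 for Pax6, 0.018 for Nkx2-2, 0.13 for Isl1 and 0.26 for Rfx6. The lowest Pax4 values rest on roughly 11 and 18 reads.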
